A study of Homo sapiens with 6 samples.

Results

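The mitochondrial ribosomal protein genes were examined in U2OS cells, an established human osteosarcoma line, after silencing of squalene epoxidase (SQLE), an enzyme of cholesterol synthesis. Members were the genes of the count table whose identifier maps to a protein-coding symbol of MRPL or MRPS followed by a digit, and 78 of the 19937 genes met this rule. Of these, 49 carried an MRPL symbol and 29 an MRPS symbol. The symbols do not fully follow the structure: MRPS18A and MRPS30 are proteins of the large subunit, and MRPS36 is now known as a component of the ketoglutarate dehydrogenase complex rather than of the ribosome. With these assigned by structure, 51 members belonged to the large subunit and 26 to the small subunit.

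The libraries were 3 of U2OS cells that stably carried a short hairpin RNA against SQLE (shSQLE) and 3 of U2OS cells that stably carried a scrambled hairpin (shControl). The study selected 1 hairpin against SQLE from several, so that the shSQLE group rests on a single sequence. Both groups received the hairpin from the pGIPZ plasmid by lentivirus, both were selected with 2 μg/mL puromycin, and both grew in McCoy's 5a medium with 10% serum. Whether a line was 1 clone or a mixed population is not given in the sources used here, nor is it said that replicates were grown separately, so that p-values measure only the spread between these libraries. Polyadenylated RNA was read as pairs of 151 bp, and the values were raw counts of 12212378 to 14393292 per library.

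Mitochondria keep a small genome that encodes subunits of the respiratory chain, and a dedicated ribosome translates its messenger RNAs. The RNA of that ribosome is made inside the organelle, while its proteins are encoded in the nucleus, made in the cytosol and imported. Many of these proteins have bacterial counterparts (MRPL3, MRPS12), whereas others arose in the mitochondrial lineage (MRPL37, MRPS22). In proliferating cells their genes are transcribed broadly and at moderate to high levels.

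SQLE itself, the gene the hairpin targets, had normalized counts of 1349, 1867 and 1924 in the shControl libraries and of 229, 204 and 219 in the shSQLE libraries, given by replicate number as in all lists of values here. The groups did not overlap, which checks the labels. A normalized count here is a count scaled by TMM factors to the mean effective library size. Of 11 markers of the osteoblast lineage, 5 exceeded 100 normalized counts in every library, RUNX2, MSX2 and COL1A1 among them, while ALPL, SP7, IBSP, BGLAP and COL1A2 were at or below 10 in every library. All 5 leukocyte markers were at or below 10 in every library, with summed levels of 4 to 5 in shControl and 1 to 4 in shSQLE. The summed level of the osteoblast-lineage markers, most of it VIM, ranged from 42576 to 49391 in shControl and from 45419 to 51094 in shSQLE. Within that list COL1A1 fell over 6 libraries (log2 difference -0.65, edgeR adjusted p 0.0452), and SPARC had a log2 difference of -0.28 (0.185) with groups that did not overlap. The other tested markers of the list went both ways: RUNX2 -0.29 (0.516), MSX2 -0.02 (0.973), SPP1 0.19 (0.748) and VIM 0.17 (0.589). Without shControl replicate 1, edgeR called COL1A1, SPARC and RUNX2 lower and VIM higher. The part of these markers in the members' values was not tested. Of the 5 epithelial markers, KRT8 and KRT18 were high, and the summed level was 12171 to 21236 in shControl against 14893 to 18820 in shSQLE. Of the 3 endothelial markers, VWF and CDH5 were at or below 10 in every library, and the summed level was 12 to 15 in shControl against 2 to 6 in shSQLE.

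One control library stood apart, and the differences between groups are given with and without it. A chi-square over genes, per degree of freedom, was 2.83 between shControl replicates 2 and 3, where sampling alone gives about 1, and 53.9 and 63.6 between each of them and shControl replicate 1. On the first 2 principal components of all genes, which held 47.0% and 37.8% of the variance, shControl replicate 1 lay at -10.0 and -43.7, and the other 5 libraries lay at -0.42 or above on the second. On the first, the shSQLE libraries lay at -19.05, -26.85 and -8.54, and shControl replicates 2 and 3 at 30.26 and 34.17. Along that component shControl replicate 1 thus lay within the range of the shSQLE libraries. Within shSQLE the chi-square was 3.38 to 15.7, with replicate 3 farthest from the others.

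With all 6 libraries, edgeR's quasi-likelihood test on TMM-normalized counts put no mitochondrial ribosomal protein gene past the threshold, where it called 0.369% of all genes higher and 2.84% lower. DESeq2 called 1 member higher, beside 1.14% of all genes. With offsets for GC content and transcript length, edgeR called 21 members higher, beside 12.1% of all genes. Estimates were higher in shSQLE for 68 of the 77 genes tested, against 48.4% of all genes. In the TMM fit without shControl replicate 1, 48 of the 77 rose, beside 15.6% of all genes called higher, and none fell, beside 18.3% called lower. Across the module the shifts were modest, with a median log2 difference of 0.18 over 6 libraries and 0.34 over 5.

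The members covered a wide range of levels. Per kilobase of canonical transcript and per 1000000 counts of effective library size, MRPL21, MRPL3 and MRPL20 had the highest levels averaged over all 6 libraries. MRPL21, a large-subunit protein with a bacterial counterpart, had levels of 293, 181 and 160.4 in shControl and 242, 259 and 199 in shSQLE. MRPL3, a protein near the peptidyl transferase centre, had 177, 205 and 200.5 in shControl and 235, 236 and 230.4 in shSQLE. MRPL20, which binds ribosomal RNA early in assembly of the bacterial large subunit, had 237, 152 and 147.5 in shControl and 207, 226 and 188 in shSQLE. The order depended on shControl replicate 1: the shControl means were 211 ± 71.2, 194 ± 14.8 and 179 ± 50.4 (SD, n = 3) for MRPL21, MRPL3 and MRPL20, and 171, 203 and 149.9 over replicates 2 and 3. In shSQLE the means were 233 ± 31.0, 234 ± 3.13 and 207 ± 19.1 (SD, n = 3), so that MRPL21 and MRPL3 did not differ beyond their spread, and MRPL20 lay below MRPL3 in every library of that group.

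The 3 lowest levels belonged to genes that overlap another annotated gene on the same strand. MRPL53, a large-subunit protein of the mitochondria-specific kind, had 1 read in shSQLE replicate 3 and 0 in the other 5 libraries, was the only member removed by the low-count filter, and shared 99.2% of its transcript bases with CCDC142. MRPS24 had a level of 2.03 ± 0.402 in shControl and 2.23 ± 0.846 in shSQLE (SD, n = 3 each), or 1.82 in shControl without replicate 1, and shared 90.9% of its bases with the readthrough gene URGCP-MRPS24. MRPL38 had 4.38 ± 1.13 and 3.80 ± 0.413, or 3.73 in shControl without replicate 1, and shared 94.3% of its bases with ENSG00000267426. Other members also shared at least 50% of their bases on the same strand with a gene that the count table held. Of these, MRPL46, MRPL2 and MRPS28 ranked 73, 71 and 60 of 78 by level, and MRPL12 ranked 44. Low ranks also fell on members with little or no overlap, chosen here after their values were seen. MRPS33 and MRPS14, with no exon overlap found, ranked 75 and 70, and MRPL42, with 1.8% shared, ranked 72. MRPS5 shared 97.1% of its bases with ENSG00000289685, a gene that the count table did not hold, and ranked 53. Genes described below also shared bases with a gene on the opposite strand: MRPS22 shared 26.6% with COPB2, MRPS34 32.6% with EME2, MRPS9 24.0% with MRPS9-AS1, MRPS18A 60.6% with RSPH9 and MRPS18C 83.6% with ABRAXAS1. In all, 31 members shared exon bases with another gene, 15 of them on the same strand and 22 on the opposite strand. The sources used here do not give the strand setting of the counting or its handling of reads that 2 genes share. Reads of these members and of the 36 members with named pseudogenes (79 pseudogenes in all) are therefore uncertain. The 47 tested members with no exon overlap had a median log2 difference of 0.18 over 6 libraries and 0.34 without shControl replicate 1. In the latter fit 32 of them rose, beside 15.6% of all genes called higher. These 47 were not screened for named pseudogenes, and the part of overlap in the members' values was not tested.

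Members lay on 21 chromosomes, and their promoters were searched for short motifs of factors known to act on nuclear genes of mitochondrial proteins. RefSeq promoters of GRCh38.p14, from 250 bases before to 50 bases after the start, were matched for 69 of the 78 members. The core site of ETS factors such as GABPA (CCGGAAG, either strand) was found in 29 of the 69, or 42.0%, against 19.3% of the promoters of 10124 tested genes and 10.3% of all 35116 promoters. The YY1 core (ATGGCGGC) was found in 19 (27.5%, against 6.40% and 3%) and the NRF1 core (GCGCATGC) in 6 (8.70%, against 5.48% and 3.05%). An SP1 box (GGGCGG) was found in 42 (60.9%, against 71.6% and 45.0%), an E-box (CACGTG) in 6 (8.70%, against 10.3% and 7.26%) and a TATA box (TATAAA) in 2 (2.90%, against 5.30% and 11.5%). None of these motifs contains another. These are matches of letters and not sites shown to be bound. The 120 bases before the start are given for 6 of the genes described below, read toward the gene, with each match to the ETS or NRF1 core in capitals. The start is that of RefSeq, whereas the gene spans given below are from GENCODE. The stretch of MRPS22 therefore lies inside its gene span, and those of MRPS34 and MRPL3 lie partly inside theirs. MRPS22 and MRPS34, the members with the smallest adjusted p in the 2 fits, held 2 and 3 ETS cores in this stretch, MRPL20 held 2 and MRPL3 held 1. MRPS18B held an NRF1 core, and MRPL57, the member with the largest estimate over 6 libraries, held neither and is shown for contrast. MRPL11, MRPL28 and MRPL37, which with MRPS34 and MRPL57 had the smallest p without shControl replicate 1, held neither core in this stretch either.
MRPS22: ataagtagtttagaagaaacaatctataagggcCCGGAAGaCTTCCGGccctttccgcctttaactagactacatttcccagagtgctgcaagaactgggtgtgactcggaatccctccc
MRPS34: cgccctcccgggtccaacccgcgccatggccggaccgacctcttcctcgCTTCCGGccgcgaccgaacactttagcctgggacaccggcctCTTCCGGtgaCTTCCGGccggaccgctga
MRPL20: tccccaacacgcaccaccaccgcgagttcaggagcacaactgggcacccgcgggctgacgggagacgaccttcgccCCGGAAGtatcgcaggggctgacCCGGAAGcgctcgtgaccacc
MRPL3: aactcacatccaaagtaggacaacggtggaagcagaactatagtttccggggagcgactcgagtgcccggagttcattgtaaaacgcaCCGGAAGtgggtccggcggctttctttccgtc
MRPS18B: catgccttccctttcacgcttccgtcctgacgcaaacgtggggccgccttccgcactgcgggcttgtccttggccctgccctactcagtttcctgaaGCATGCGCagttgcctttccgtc
MRPL57: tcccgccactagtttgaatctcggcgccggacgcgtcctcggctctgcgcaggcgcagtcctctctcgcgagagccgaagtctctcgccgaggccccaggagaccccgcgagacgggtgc
These stretches lie at chr3:139343874-139343993 (+ strand) for MRPS22, chr16:1773135-1773254 (- strand) for MRPS34, chr1:1407294-1407413 (- strand) for MRPL20, chr3:131502972-131503091 (- strand) for MRPL3, chr6:30617720-30617839 (+ strand) for MRPS18B and chr13:21176538-21176657 (+ strand) for MRPL57. Members with and without an ETS core had median log2 differences between shSQLE and shControl of 0.18 against 0.17 over 6 libraries (28 tested members with it and 40 without) and 0.35 against 0.32 without shControl replicate 1. In the fit without that library 20 and 23 of them rose, beside 15.6% of all genes called higher. For the YY1 core the medians were 0.18 with it (19 members) and 0.17 without (49), and 0.28 against 0.35 without shControl replicate 1, where 9 and 34 members rose. For the NRF1 core they were 0.13 with it (6) and 0.18 without (62), and 0.30 against 0.34 without that library, where 3 and 40 rose. None of these differences was tested.

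With all 6 libraries, the design compares 3 shSQLE with 3 shControl libraries across 12450 genes that passed the low-count filter. No member was called higher at an adjusted p of 0.05 by edgeR's quasi-likelihood test, where 0.369% of all genes were called higher, and no member was called lower, where 2.84% of all genes were. At an unadjusted p under 0.05 there were 10 of the 77 members, all with higher values in shSQLE (MRPL1, MRPL3, MRPL16, MRPL47, MRPL49, MRPL57, MRPS9, MRPS22, MRPS25 and MRPS27). A larger share of all genes, 14.7% over both directions, passed that unadjusted threshold. DESeq2 called 1 member higher, MRPS22, where it called 1.14% of all genes higher. Estimates ran from -0.20 for MRPL38 to 0.42 for MRPL57, with quartiles of 0.07 and 0.27. The median was 0.18, against -0.01 over all genes tested, of which 20.4% lay above the members' median. The groups did not overlap in 17 members, or 22.1%, each with all shSQLE libraries higher, beside 10.0% of all genes that did so in this direction. No member had all shSQLE libraries lower, where 12.1% of all genes did. The 3 libraries a group cannot give an exact permutation p below 0.1 for a single gene.

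**Figure D1:**
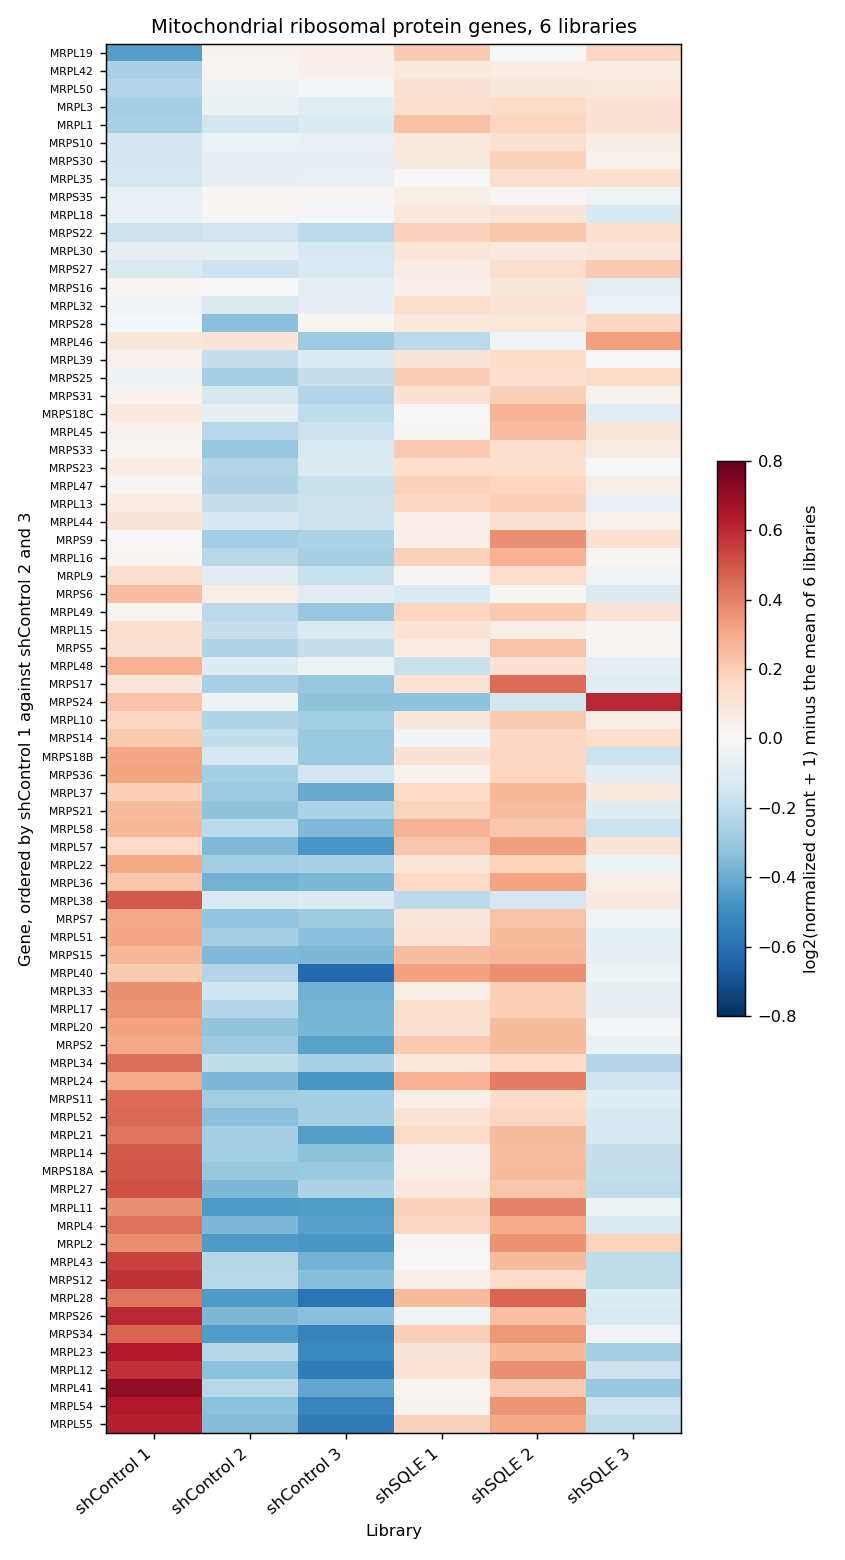
Heatmap of the 77 genes tested (1 gene per line) in 6 libraries (columns), as log2(normalized count + 1) minus the gene's mean over the 6 libraries, ordered from the lowest to the highest value of shControl replicate 1 against the other controls. Replicates 2 and 3 of shControl are below the mean for most genes, and shControl replicate 1 is the highest of the 6 libraries in 33 of them, which stand mostly in the lower part.

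The heatmap of members by library shows how the control libraries divided. The member median of the log2 deviation from the gene's mean was 0.21, -0.23 and -0.27 in the shControl libraries, and 0.11, 0.19 and -0.04 in the shSQLE libraries. As a share of all counts, the members took 0.660%, 0.547% and 0.540% in shControl and 0.648%, 0.677% and 0.612% in shSQLE. By this share shControl replicate 1 lay within the range of the shSQLE libraries, and the other controls lay below it. In bulk RNA a lower share of cells with a transcript and less transcript per cell cannot be told apart. Within shSQLE, replicate 2 was the highest library in 59 members and replicate 3 the lowest in 61.

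In the fit without shControl replicate 1, which set the 3 shSQLE libraries against shControl replicates 2 and 3 across 12570 genes, 48 of 77 members (62.3%) rose, beside 15.6% of all genes called higher. None fell, where 18.3% of all genes were called lower. The median log2 difference was 0.34, against -0.01 over all genes tested, and estimates ran from -0.06 for MRPS6 to 0.75 for MRPL28. As a percentage of the mean of shControl replicates 2 and 3, the shSQLE mean was higher by 26.9% in the median member, with a range of -3.91% to 67.7%. All 3 shSQLE libraries exceeded both of these controls in 63 members (81.8%), beside 28.6% of all genes, and were below both in 0 members, beside 31.3% of all genes. DESeq2 on the same 5 libraries called 46 members higher, beside 14.2% of all genes, and 45 of these were among the 48. The control side of this comparison rests on 2 libraries, chosen after shControl replicate 1 had been seen to stand apart.

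MRPS22, a mitochondria-specific protein of the small subunit whose loss causes a mitochondrial disease, had the smallest adjusted p of the members over 6 libraries. The gene (ENSG00000175110) lies on chr3:139005806-139360497 of hg38, + strand, and its canonical transcript has 8 exons. Its normalized counts were 1408, 1422 and 1365 in shControl and 1799, 1839 and 1737 in shSQLE. All shSQLE libraries were above all shControl libraries, including replicate 1. The means were 1398 ± 29.2 and 1792 ± 51.4 (SD, n = 3 each), a log2 difference of 0.36 (SE 0.10) with an adjusted p of 0.110 in edgeR's quasi-likelihood test. Without shControl replicate 1 the estimate was 0.36 with an adjusted p of 0.00478 in the same test.

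MRPL3 (ENSG00000114686, chr3:131462212-131502983, - strand, 10 exons) behaved similarly among the large-subunit genes. Its normalized counts were 4084, 4721 and 4617 in shControl and 5416, 5443 and 5307 in shSQLE, so that the groups did not overlap and shControl replicate 1 was the lowest library. The log2 difference was 0.27 (SE 0.10), with an edgeR adjusted p of 0.255 over 6 libraries, and 0.21 with 0.0427 over 5. MRPS9, the counterpart of a bacterial protein near the P site, had 734, 610 and 618 in shControl and 758, 950 and 799 in shSQLE, again without overlap. Its log2 difference was 0.35 over 6 libraries (edgeR adjusted p 0.281) and 0.45 over 5 (adjusted p 0.00762).

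Of the other members with an unadjusted p under 0.05 over 6 libraries, MRPL57 is described further on, and the 6 that follow were chosen after their values were seen. MRPL1, the counterpart of the protein of the bacterial L1 stalk, had normalized counts of 579, 625 and 642 in shControl and 815, 781 and 749 in shSQLE, with a log2 difference of 0.35 (edgeR adjusted p 0.178) and 0.30 without shControl replicate 1 (0.0200). MRPS25, a mitochondria-specific small-subunit protein, had 1301, 1116 and 1177 in shControl and 1537, 1472 and 1492 in shSQLE, with 0.32 (0.194) and 0.39 (0.00370). MRPS27, a small-subunit protein of the pentatricopeptide repeat family, had 1805, 1740 and 1796 in shControl and 2035, 2145 and 2263 in shSQLE, with 0.27 (0.242) and 0.28 (0.0179). In MRPL1, MRPS25 and MRPS27 the lowest shSQLE library was above the highest control library.

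MRPL49, a mitochondria-specific large-subunit protein, had 1323, 1124 and 1057 in shControl and 1465, 1509 and 1404 in shSQLE, with a log2 difference of 0.32 (edgeR adjusted p 0.255) and 0.42 without shControl replicate 1 (0.00277). MRPL16, a counterpart of a bacterial large-subunit protein, had 689, 585 and 567 in shControl and 777, 827 and 692 in shSQLE, with 0.32 (0.309) and 0.41 (0.00805). MRPL47, the counterpart of bacterial L29, had 1573, 1309 and 1368 in shControl and 1765, 1747 and 1600.3 in shSQLE, with 0.27 (0.334) and 0.35 (0.00733). In these genes shControl replicate 1 was the highest control and still lay below every shSQLE library, in MRPL16 by a margin of few counts.

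Among the genes with the smallest p in the 5-library fit, shControl replicate 1 lay within or above the range of the shSQLE libraries. MRPS34 (ENSG00000074071, chr16:1771890-1773150, - strand, 3 exons), a small-subunit protein required for the stability of that subunit, had normalized counts of 2803, 1483 and 1398 in shControl and 2310, 2572 and 1997 in shSQLE. The first of these controls exceeded every shSQLE library, and the other controls were below all of them. The log2 difference was 0.28 (SE 0.26, edgeR adjusted p 0.719) over 6 libraries and 0.67 (SE 0.10, edgeR adjusted p 5.52e-04) over 5.

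MRPL11, the counterpart of the bacterial protein at the base of the ribosomal stalk, had normalized counts of 2820, 1603 and 1605 in shControl and 2487, 2890 and 2130 in shSQLE, with a log2 difference of 0.32 over 6 libraries (edgeR adjusted p 0.632) and 0.64 over 5 (0.00116). MRPL28, a large-subunit protein with a bacterial counterpart, had 1739, 944 and 857 in shControl and 1543, 1788 and 1199 in shSQLE, with a log2 difference of 0.36 (edgeR adjusted p 0.653) and 0.75 (0.00167). In both genes shControl replicate 1 lay within the range of the shSQLE libraries, and the other controls lay below that range. MRPL37, a mitochondria-specific large-subunit protein, had 2617, 1875 and 1734 in shControl and 2553, 2753 and 2407 in shSQLE, with a log2 difference of 0.31 (edgeR adjusted p 0.458) and 0.51 (9.68e-04).

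Proteins of the ribosomal stalk, which recruits translation factors, were compared with MRPL11 after their values were seen. MRPL10, which anchors the stalk, had normalized counts of 734, 554 and 542 in shControl and 697, 756 and 676 in shSQLE, with log2 differences of 0.22 (edgeR adjusted p 0.591) and 0.37 (0.00952). MRPL12, the stalk protein itself, whose transcript shares 69.5% of its bases with ENSG00000262660 on the same strand, had 902, 479 and 408 in shControl and 649, 775 and 538 in shSQLE, with 0.14 (0.895) and 0.56 (0.00916). In MRPL12 shControl replicate 1 exceeded every shSQLE library, and in MRPL10 it lay within their range.

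MRPL57 (ENSG00000173141, chr13:21176658-21179084, + strand, 2 exons), a small mitochondria-specific protein of the large subunit, had the largest estimate over 6 libraries. Its normalized counts were 835, 583 and 541 in shControl and 870, 942 and 803 in shSQLE, so that only shControl replicate 1 reached into the shSQLE range. The log2 difference was 0.42 (SE 0.18, edgeR adjusted p 0.331) over 6 libraries and 0.63 (SE 0.10, edgeR adjusted p 6.32e-04) over 5. MRPL40, a mitochondria-specific large-subunit protein encoded in the region of chromosome 22 lost in a common deletion syndrome, had 533, 392 and 300.2 in shControl and 579, 596 and 450.2 in shSQLE. Its log2 difference was 0.41 (edgeR adjusted p 0.466) and 0.64 (0.00521).

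**Figure D2:**
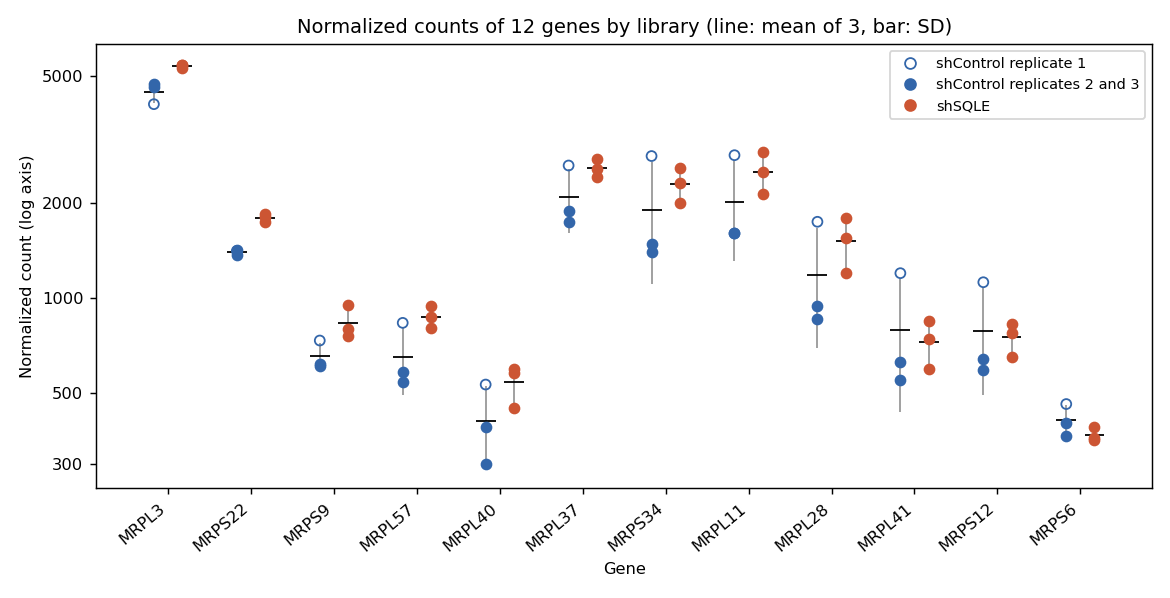
Normalized counts (log axis) of 12 named genes in each library, with the mean of 3 as a line and the SD as a bar; the open blue circle is shControl replicate 1, filled blue circles are shControl replicates 2 and 3 and orange circles are shSQLE. The groups are apart in MRPL3, MRPS22 and MRPS9, while in MRPS34 and MRPL41 the open circle lies above all shSQLE libraries.

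The 5 lowest estimates over 6 libraries passed the test in neither the 6-library nor the 5-library fit. MRPL38 had normalized counts of 104, 67.8 and 68.7 in shControl and 63.6, 67.0 and 78.1 in shSQLE, with log2 differences of -0.20 over 6 libraries and 0.03 over 5. MRPL41, a mitochondria-specific large-subunit protein, had 1197, 628 and 550.3 in shControl and 743, 848 and 595 in shSQLE, with -0.12 (edgeR adjusted p 0.913) and 0.31 (0.0884). In both genes shControl replicate 1 was the highest library, and the other controls overlapped the shSQLE libraries.

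MRPS6, the counterpart of a bacterial small-subunit protein, had 463, 404 and 367 in shControl and 357, 392 and 362 in shSQLE, with log2 differences of -0.15 and -0.06, so that its estimate was below 0 in both fits. MRPS12, the counterpart of the bacterial protein at the decoding centre, had 1121, 643 and 593 in shControl and 774, 830 and 651 in shSQLE, with -0.06 and 0.28. MRPL48, a mitochondria-specific large-subunit protein, had 470, 362 and 377 in shControl and 343, 420 and 371 in shSQLE, with -0.09 and 0.03. The estimates of MRPL38, MRPL41, MRPL48 and MRPS12 thus changed sign when shControl replicate 1 was left out, while that of MRPS6 did not. In all, 9 of the 77 estimates changed sign in this way, the others being MRPL23 (0.41 in the 5-library fit), MRPL34 (0.25), MRPL43 (0.33), MRPS26 (0.39) and MRPS35 (-0.01).

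The MRPS18 paralogs, 3 proteins related to the same bacterial S18, occupy different places: MRPS18A sits in the large subunit, and MRPS18B and MRPS18C in the small one. MRPS18A had a log2 difference of 0.03 over 6 libraries and 0.35 over 5 (edgeR adjusted p 0.0380), MRPS18B had 0.06 and 0.26 (0.0776), and MRPS18C had 0.13 and 0.20 (0.189). In the TMM fit without shControl replicate 1, MRPS18A was thus called and the others were not. With offsets for GC content and length and without that library, MRPS18C was called (0.28, edgeR adjusted p 0.0260) and MRPS18A (0.08, 0.392) and MRPS18B (0.09, 0.312) were not. Their differences from one another were not tested.

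By subunit, the 50 tested large-subunit members had a median log2 difference of 0.17 over 6 libraries, and the 26 small-subunit members had 0.19. Without shControl replicate 1 the medians were 0.35 and 0.32, and 32 (64.0%) and 16 (61.5%) members rose, beside 15.6% of all genes called higher. Among large-subunit proteins, 22 of 30 with a bacterial counterpart rose in that fit (73.3%) and 10 of 20 of the mitochondria-specific kind (50%). Among small-subunit proteins the counts were 8 of 16 (50%) and 8 of 10 (80%). The higher share thus fell on different kinds in the 2 subunits, and no test of these shares was made. In these counts MRPS18A and MRPS18B stood with the mitochondria-specific kind and MRPS18C with the bacterial counterparts, although all are related to bacterial S18. Members with groups apart over 6 libraries came from both subunits, 10 from the large and 7 from the small. MRPS36, which is not a ribosomal protein, had log2 differences of 0.06 and 0.26 and was called in neither fit.

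The departure of shControl replicate 1 went with the composition and length of the transcripts. Members had a median canonical transcript of 1260 nt, and 91.3% of all genes tested had a longer one, whereas their median GC content of 48.0% was close to the 48.4% of all genes. Within the module, GC content ran from 34.8% to 66.7%. The log2 ratio of shControl replicate 1 to the mean of the other controls had a median of 0.46 over the members, against -0.03 over all genes. This ratio had a Spearman correlation of 0.79 with GC content and of -0.53 with length over the 77 members, which share the same 3 libraries. Over 12447 genes the same correlations were 0.73 and -0.56.

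**Figure D3:**
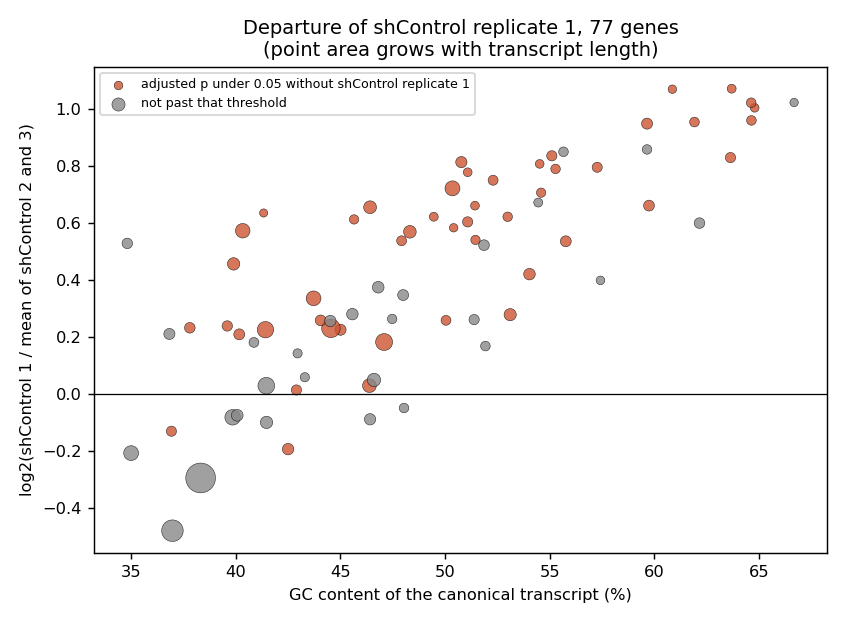
The log2 ratio of shControl replicate 1 to the mean of shControl replicates 2 and 3 (vertical axis) against the GC content of the canonical transcript in % (horizontal axis) for 77 genes, with point area growing with transcript length and orange for the 48 genes called higher in the 5-library fit. The ratio rises with GC content, with a Spearman correlation of 0.79, and called genes occur at low and high GC content.

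The 33 members in which shControl replicate 1 was the highest library (42.9%, against 31.3% of all genes) had a median GC content of 54.5% and a median length of 1016 nt. Their median log2 difference moved from 0.07 over 6 libraries to 0.35 over 5. In the other 44 members, with medians of 44.8% and 1552 nt, it moved from 0.22 to 0.29. Since these sets were split by the same library that was then left out, the size of the move is a description only. The 17 members with groups apart over 6 libraries had a median GC content of 42.5% and a median length of 2026 nt, and their median log2 difference was 0.27 with shControl replicate 1 and 0.28 without it. These 17 were picked by their values over 6 libraries, so that their medians describe them and test nothing. The part of GC content and length in the 5-library result was not tested apart from the fits that follow. The log2 difference without shControl replicate 1 itself correlated with GC content over the members (Spearman 0.50) and with length (-0.30). Over 12447 genes the same correlations were 0.42 and -0.43, so that shorter transcripts in general had higher estimates in this fit.

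With smooth offsets for GC content and transcript length fitted within each library, 21 members rose over 6 libraries, beside 12.1% of all genes called higher, and none fell, beside 8.66% called lower. The member median was 0.17, against 0.06 over all genes. Called members included genes of low GC content, such as MRPL3, MRPL19 and MRPS22, and of high GC content, such as MRPS34, MRPL28 and MRPS2 (MRPL19 and MRPS2 were chosen after their values were seen). The smallest adjusted p of this fit belonged to MRPL49 at 0.00321 and MRPS34 at 0.00324, with edgeR's quasi-likelihood test, and their log2 differences were both 0.33. Of the 21, 20 were also called without shControl replicate 1 and without offsets, MRPL19 being the exception. With offsets and without that library, 51 members rose, beside 24.2% of all genes. MRPL18 and MRPS6 fell in this last fit, beside 13.2% of all genes called lower, and the median was 0.23 against 0.06 over all genes. The 21 members called over 6 libraries were all called in it as well.

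Related gene groups were described in the same way, with counts from the TMM fits of edgeR unless offsets are named. These fits called 15.6% of all genes higher and 18.3% lower without shControl replicate 1. The 5 proteins of the mitochondrial ribosome with other names had a median log2 difference of 0.01 over 6 libraries and 0.40 over 5, and 3 of them rose in the second fit: AURKAIP1 (0.61, edgeR adjusted p 0.00341), GADD45GIP1 (0.46, 0.0164) and CHCHD1 (0.40, 0.0186). DAP3, a GTP-binding protein of the small subunit, had normalized counts of 870, 789 and 777 in shControl and 822, 833 and 798 in shSQLE and log2 differences of 0.01 and 0.06. PTCD3, an RNA-binding protein of the small subunit, had log2 differences of -0.02 and -0.10. Of 28 assembly factors of the mitochondrial ribosome, 8 rose without shControl replicate 1 (median 0.22), and of 18 translation factors tested, 5 did (median 0.03). Of 16 genes of mitochondrial DNA transcription, 2 rose and 1 fell (median 0.11).

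The 13 mitochondrially encoded mRNAs, which the mitochondrial ribosome translates, had a median of -0.03 over 6 libraries, with 12 of them lower and 0 called in either direction by edgeR's quasi-likelihood test (0 at an unadjusted p under 0.05). Without shControl replicate 1 the median was 0.09, and 1 of the 13, MT-ND4L, fell. With offsets the median was -0.08 over 6 libraries, with 1 called lower, beside 8.66% of all genes. It was -0.09 without shControl replicate 1, with 4 called lower, beside 13.2% of all genes. Among 78 nuclear subunits of the respiratory chain, 62 rose without shControl replicate 1 (median 0.40), and 1 rose over 6 libraries in the TMM fit. That gene was ATP5PB, a subunit of the stator of ATP synthase, with normalized counts of 7767, 7604 and 7741 in shControl and 11266, 11805 and 11063 in shSQLE, a log2 difference of 0.56 (edgeR adjusted p 0.0174). Of 79 cytosolic ribosomal protein genes, 76 rose without shControl replicate 1 (median 0.46) and 0 over 6 libraries in the TMM fit, where 2 had an unadjusted p under 0.05. With offsets, 17 of the 78 and 18 of the 79 rose over 6 libraries, beside 12.1% of all genes called higher. Without shControl replicate 1, 51 and 71 did, beside 24.2% of all genes. The mitochondrial ribosomal protein genes were thus not alone in this shift, and shControl replicate 1 was the highest library in 48 of the 78 and 55 of the 79.

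**Figure D4:**
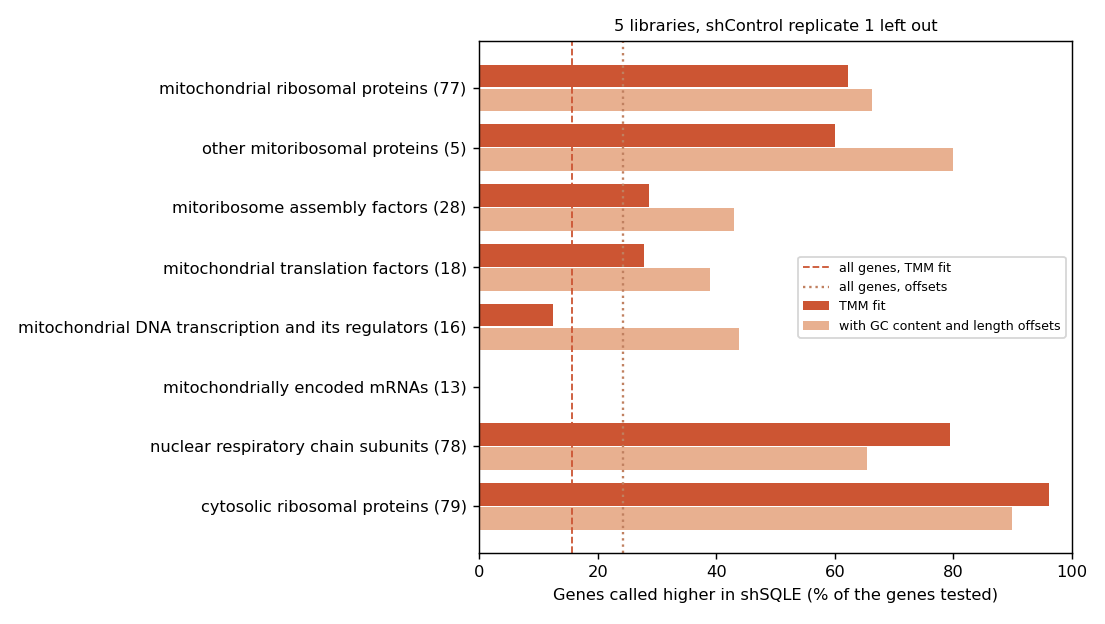
Share of the genes tested that were called higher in shSQLE (%, from 0) in each gene group without shControl replicate 1, for the TMM fit (dark bars) and the fit with GC content and length offsets (light bars), with the number tested in brackets and the shares over all genes as lines at 15.6% and 24.2%. Mitochondrial ribosomal protein genes reach 62.3% and 66.2%, cytosolic ribosomal protein genes 96.2% and 89.9%, and mitochondrially encoded mRNAs are at 0 in both.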

How the data were processed

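The 6 libraries were grouped by the genotype in their labels. Per the submitters' processing notes and the study's methods, the authors used fastp 0.20.0 for trimming, STAR 2.7.9a for alignment to hg38 and featureCounts 2.0 for counting. The deposited table holds raw counts by gene, not normalized, with totals from 12212378 to 14393292 per library. The annotation release and the settings for strand and multi-mapping reads are not given in the sources used here.

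Genes with low counts were removed with filterByExpr. TMM factors and the quasi-likelihood test of edgeR 4.0.16 (R 4.3.3, limma 3.58.1) were then applied to all genes, with Benjamini-Hochberg adjustment over all of them at 0.05. The same model was refitted without shControl replicate 1. DESeq2 1.42.0 was an alternative, as were other size factors and filters, a replicate block, each library left out, and smooth offsets on GC content and length (mgcv 1.9.3). Symbols, positions, transcript length and GC content came from GENCODE v44, and promoters from RefSeq (GRCh38.p14). The scripts were tested on simulated counts.

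The members, the gene lists and the tests were chosen with earlier results of these data known. Subunit classes came from general knowledge. They, the motif grouping of members, and some alternatives (5-library DESeq2, offsets and stricter threshold, and non-overlap counts under other settings) were chosen after the data had been seen. Named members were those past the threshold over 6 libraries (none), the 5 highest and 5 lowest estimates, the 5 smallest p in each direction among those past the threshold without shControl replicate 1 (none was lower), the 3 highest and 3 lowest levels per transcript length, those removed by the filter, and the MRPS18 paralogs. From other lists, named genes were up to 5 past the threshold over 6 libraries and the 5 ribosomal proteins with other names. Other genes named are said to have been chosen later or make up a count. Of the osteoblast-lineage markers, 1 is not reported here.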

Additional observations from a re-analysis of the deposited data

How the results depend on the processing

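Over 6 libraries, 0 members were called higher by edgeR under other size factors, other filters, an adjusted p under 0.1 and the replicate block, in which the median was 0.19. DESeq2 called 1 (beside 1.14% of all genes) and the offsets for GC content and length called 21 (beside 12.1%). Leaving out each library in turn gave 0 to 48 members called higher, 48 without shControl replicate 1 and 0 without each of the others, and a median of 0.11 to 0.34. Without shControl replicate 1, the 48 (beside 15.6% of all genes called higher) became 26 at an edgeR adjusted p under 0.01. The share of all genes at that stricter threshold was not computed, so the 26 has no such share beside it. With offsets and without that library, 2 members were called lower in place of 0, beside 13.2% of all genes. The 17 members with groups apart (beside 10.0% of all genes with shSQLE higher) became 63 without shControl replicate 1 (beside 28.6%). They became 27 without shSQLE replicate 3, and leaving out libraries gave 17 to 63. For the 27 the share over all genes was not computed. With a library left out, groups stand apart more easily in any gene. The cause of these moves was not tested. Among the named genes, estimates over 6 libraries changed sign with a library left out in these cases, given as lowest and highest: MRPL21 -0.011 to 0.45, MRPL38 -0.30 to 0.028, MRPL41 -0.31 to 0.31, MRPL48 -0.17 to 0.035, MRPS12 -0.22 to 0.28, MRPS18A -0.10 to 0.35, MRPS18B -0.051 to 0.26 and MRPS24 -0.19 to 0.32. Of all alternatives of named genes, 245 kept direction and call, 22 passed the threshold only under the alternative and 13 changed sign. Same-numbered libraries did not consistently deviate together (correlations over genes of 0.14, -0.43 and 0.54). Libraries of unlike number did so as strongly, as shControl replicate 1 had 0.54 with shSQLE replicate 2 and -0.595 with shSQLE replicate 3. The numbers were therefore not taken as pairs. Under the replicate block 0 members were called by edgeR and 6 had an unadjusted p under 0.05. With 3 libraries a group, of which 1 control stood apart, the members' direction over 5 libraries rests on 2 controls. MRPL53 had 1 read in all and MRPS24 had 14.7 to 28.8 normalized counts, with an SE of 0.34 for its log2 difference. Why they were low was not tested.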
